A study of Mus musculus with 5 samples.

Results

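S100 proteins, annexins, vimentin and the hyaluronan receptor CD44 were followed as a set of 9 genes, out of 54532 genes in the deposited read count table, in 5 mouse small cell lung cancers. The genes, taken by their symbol, were S100a6, S100a4, S100a10, S100a11, Anxa1, Anxa2, Anxa3, Vim and Cd44, and each symbol matched 1 row. They were chosen by their read counts in these same tumours, the difference between treatment groups included, so their levels and fold changes are given as a description, without a test. The study read RNA from 3 tumours labelled LSN, the label for an inhibitor of Aurora A kinase, and 2 labelled vehicle. All 5 carried the genotype RPP, whose letters the labels do not expand, and came from the lungs of mice at necropsy, so whatever RPP stands for is shared by both groups. The strain, age and sex of the mice, the promoter that drove any Cre, the dose, the length of treatment and whether each tumour came from its own animal are absent from the labels at hand.

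S100 proteins are small calcium-binding proteins that act inside cells as dimers on partner proteins, and annexins are proteins that bind membrane phospholipids when calcium rises. The families meet in fixed complexes, in which S100A10 holds annexin A2 at the plasma membrane and S100A11 binds annexin A1. Vimentin is the intermediate filament of mesenchymal cells, and CD44 ties hyaluronan outside the cell to the cortical cytoskeleton. In small cell lung cancer, vimentin and CD44 are known as marks of tumour cells with few neuroendocrine traits, and many of the 9 genes are also expressed by endothelium, stroma, lung epithelium and leukocytes. In pieces of whole tumour, fewer cells of a type and less RNA per cell cannot be told apart.

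Promoter sequences are shown for 4 of the genes, each holding the letters of an AP-1 motif, a TATA box or both. S100a4 also held a TATA box and is not shown. The 4 were chosen with the levels known. S100a11 and Anxa2 both held the letters of an AP-1 motif, while Anxa1 and Vim shared with Anxa2 a TATA box near the start site. A link between these motifs and the patterns across the tumours was not tested. Each runs 5′ to 3′ on the gene's strand, from 250 bases before to 50 bases after the start (RefSeq, build GRCm38.p6, the mm10 assembly that the authors used), and capitals mark TGANTCA and TATAAA on either strand. The windows are chr3:93520246-93520545 on the plus strand for S100a11, chr9:69453433-69453732 on the plus strand for Anxa2, chr19:20390622-20390921 on the minus strand for Anxa1 and chr2:13574061-13574360 on the plus strand for Vim.
S100a11: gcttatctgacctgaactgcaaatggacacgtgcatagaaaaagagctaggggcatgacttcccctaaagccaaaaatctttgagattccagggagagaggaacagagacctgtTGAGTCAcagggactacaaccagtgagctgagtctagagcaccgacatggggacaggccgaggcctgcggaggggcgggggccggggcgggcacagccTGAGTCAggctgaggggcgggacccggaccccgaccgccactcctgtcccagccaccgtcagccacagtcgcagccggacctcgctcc
Anxa2: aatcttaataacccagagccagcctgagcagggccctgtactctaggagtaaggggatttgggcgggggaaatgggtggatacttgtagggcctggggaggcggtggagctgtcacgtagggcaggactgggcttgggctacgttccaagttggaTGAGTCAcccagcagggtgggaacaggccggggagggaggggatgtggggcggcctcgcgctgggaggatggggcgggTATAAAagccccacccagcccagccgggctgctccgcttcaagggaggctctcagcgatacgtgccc
Anxa1: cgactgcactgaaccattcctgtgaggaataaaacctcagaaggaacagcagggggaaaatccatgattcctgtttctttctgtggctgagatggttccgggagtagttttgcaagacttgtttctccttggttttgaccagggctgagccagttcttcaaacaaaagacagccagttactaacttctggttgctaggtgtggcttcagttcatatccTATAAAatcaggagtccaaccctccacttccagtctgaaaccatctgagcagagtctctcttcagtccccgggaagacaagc
Vim: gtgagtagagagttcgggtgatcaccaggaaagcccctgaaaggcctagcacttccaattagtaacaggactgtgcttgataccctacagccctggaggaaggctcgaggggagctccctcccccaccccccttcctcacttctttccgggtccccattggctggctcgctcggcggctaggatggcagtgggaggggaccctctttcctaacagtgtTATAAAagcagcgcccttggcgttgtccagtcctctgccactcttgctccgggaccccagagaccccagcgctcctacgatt
Of the 9 genes, 7 had a promoter in the RefSeq table, and S100a10 and Anxa3 had no match. TGANTCA, the AP-1 motif, stood in 2 of the 7, beginning 136 and 38 bases before the start of S100a11 and 95 bases before that of Anxa2, and in 7.81% of all 32851 promoters. TATAAA stood in 4 of the 7, Vim, S100a4, Anxa2 and Anxa1, and in 13.6% of all promoters. The GC box GGGCGG stood in S100a11, Anxa2 and Cd44 (35.7% of all promoters), GGAATG of the TEAD factors in Anxa1 alone (14.7%), the E-box CANNTG in S100a6, S100a11 and Anxa1 (72.3%) and the NF1 motif TTGGC in Vim and S100a11 (46.7%). All motifs were searched on both strands, and none of the marked letters overlapped. Such matches describe letters only. In the coordinates of the deposited table (mm10), S100a6 spans 90612882 to 90624181, S100a11 93520488 to 93526287 and S100a10 93555080 to 93564643 on the plus strand of chromosome 3. Anxa1 spans 20373428 to 20390944 on the minus strand of chromosome 19, Anxa2 69453620 to 69491795 on the plus strand of chromosome 9 and Anxa3 96793339 to 96845966 on the plus strand of chromosome 5. Vim spans 13573927 to 13582826 on the plus strand and Cd44 102811141 to 102901665 on the minus strand of chromosome 2. The promoter windows of Anxa1 and Vim lie wholly inside these spans, so the RefSeq starts used for them differ from the outer ends of the deposited genes.

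The tumours had between 17439049 and 19766604 counts each. Values are given as CPM (counts relative to the library's total over the genes kept), scaled by the TMM method of edgeR. Of the 9 genes, 8 passed the filter on low counts, and these had at least 206 counts in every tumour. S100a4 did not pass. Across 17906 genes tested, edgeR's quasi-likelihood test called 0 genes at an adjusted p of 0.05 (0%), with 190 higher (1.06%) and 574 lower (3.21%) at an unadjusted p under 0.05, limma-voom called 0, with 858, and DESeq2 called 100 of 18547, 14 higher (0.0755%) and 86 lower (0.464%). Neuroendocrine markers, which define this tumour type, were present, and the summed level of 9 of them was 3952, 3943 and 2717 CPM in the LSN tumours against 5040 and 1960.1 CPM in the vehicle tumours. The groups overlapped for 6 of the 9, Insm1 among them, with 589, 822 and 445 CPM in the LSN tumours against 507 and 535 CPM in the vehicle tumours. Neurod1, called lower by DESeq2, had 0.773, 0.429 and 0 CPM in the LSN tumours against 37.3 and 11.1 CPM in the vehicle tumours. Uchl1 was below both vehicle tumours in every LSN tumour, at 343 to 472 CPM against 521 and 552 CPM, and Syp above both, at 114 to 170 CPM against 83.96 and 92.8 CPM in the vehicle tumours.

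The 8 measured genes averaged lower in LSN than in vehicle tumours, by log2 fold changes from -2.08 for S100a6 to -0.84 for Cd44. Their median was -1.52, against 0.03 over all genes tested, and 5.45% of all genes tested lay at or below -1.52. Every LSN tumour was below both vehicle tumours for 7 of the 8 genes, Cd44 being the exception, where 10.4% of all genes tested had this pattern. The choice of the genes used this contrast, so nothing is read from these counts. The 8 genes did not share 1 pattern over the tumours. S100a6, Anxa1 and Anxa2 were high in both vehicle tumours, whereas Vim and Cd44 were high in vehicle replicate 2 alone.

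**Figure D1:**
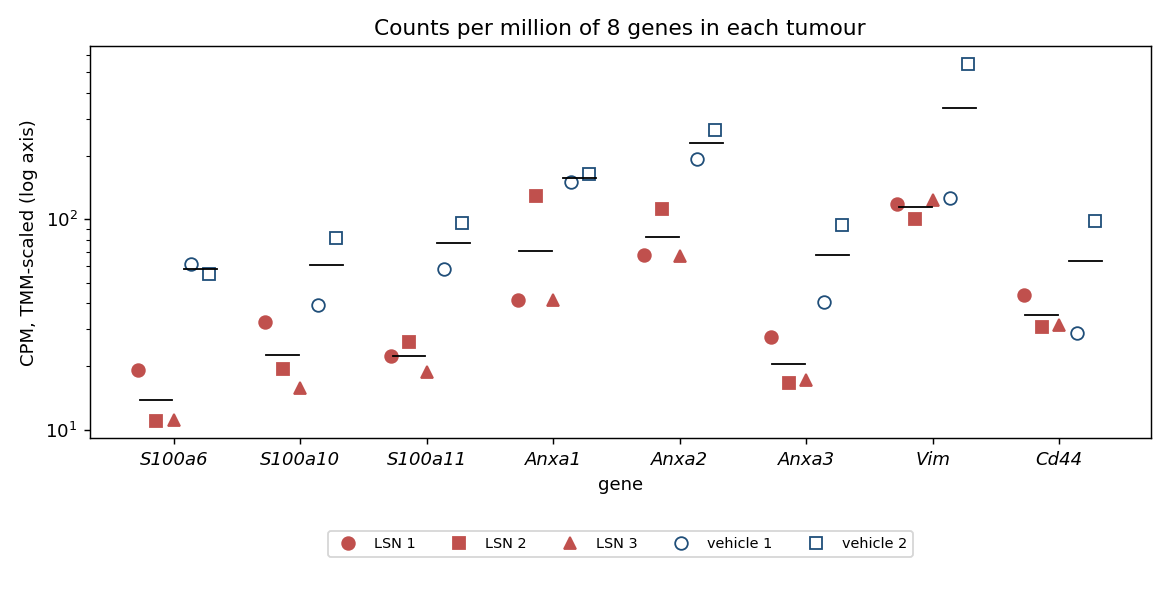
TMM-scaled CPM (log axis) of the 8 genes that passed the filter, 1 point per tumour, with LSN tumours filled and vehicle tumours open and a line at each group's mean. The groups lie apart for S100a6 (11.04 to 19.2 CPM in LSN tumours, 55.0 and 61.5 CPM in vehicle tumours), nearly touch for Vim and overlap for Cd44.

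S100a6, also called calcyclin, binds ubiquitin ligase adaptors and is abundant in growing epithelial cells and fibroblasts. It had 19.2, 11.04 and 11.07 CPM in LSN replicates 1, 2 and 3, against 61.5 and 55.0 CPM in vehicle replicates 1 and 2. The vehicle tumours were close to each other and well above all LSN tumours. The means were 13.8 ± 4.71 CPM in LSN tumours (SD, n = 3) and 58.3 ± 4.62 CPM in vehicle tumours (SD, n = 2), a ratio of 0.236, with a log2 fold change of -2.08 ± 0.35 (SE). It was the only 1 of the 8 genes whose highest value was in vehicle replicate 1.

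S100a11, which binds annexin A1 and takes part in the repair of the plasma membrane, had 22.4, 25.9 and 18.8 CPM in the LSN tumours, against 57.8 and 96.2 CPM in the vehicle tumours. The LSN values were tightly grouped, and the groups did not overlap. The means were 22.4 ± 3.55 CPM in LSN tumours (SD, n = 3) and 77.0 ± 27.2 CPM in vehicle tumours (SD, n = 2), with a log2 fold change of -1.78 ± 0.32 (SE). S100a10, the S100 protein that has lost calcium binding and anchors annexin A2, had 32.5, 19.5 and 15.8 CPM in the LSN tumours, against 39.2 and 81.8 CPM in the vehicle tumours. LSN replicate 1 lay close below vehicle replicate 1, so that the gap between the groups was small beside their spread. The log2 fold change was -1.42 ± 0.47 (SE).

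S100a4, a protein of fibroblasts, macrophages and motile tumour cells that binds non-muscle myosin, had only 2, 0 and 2 counts in the LSN tumours and 7 and 7 counts in the vehicle tumours. The LSN counts lay at or under the floor of 3 counts, between 0.159 and 0.167 CPM, so no fold change is given. In the GENCODE M21 annotation, S100a4 (chromosome 3, 90603771 to 90606045) shares 302 of its 584 exonic bases (51.7%) with Gm42674, a gene of the same strand at 90601904 to 90605885. The table lists Gm42674 at 0 counts in all 5 tumours. The sources used here do not say how the authors counted reads that lie in both genes, and the part of the overlap in the low count was not tested. Macrophage and fibroblast markers, described below, were present in every tumour. No other member shared more than 3.07% of its exonic bases with another gene, and the library kit does not keep the strand.

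Anxa2, the annexin of the plasma membrane that carries S100A10 and a receptor role for plasminogen activation, had 67.5, 112 and 67.1 CPM in the LSN tumours, against 193 and 266 CPM in the vehicle tumours. LSN replicate 2 stood above the other LSN tumours and still below both vehicle tumours. The means were 82.1 ± 25.6 CPM in LSN tumours (SD, n = 3) and 229.7 ± 51.6 CPM in vehicle tumours (SD, n = 2), with a log2 fold change of -1.48 ± 0.32 (SE).

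Anxa1, a glucocorticoid-induced inhibitor of inflammation that acts through formyl peptide receptors, had 41.4, 129 and 41.5 CPM in the LSN tumours, against 151 and 164 CPM in the vehicle tumours. LSN replicate 2 had 3.12 times the mean of the other LSN tumours and came near vehicle replicate 1. The log2 fold change was -1.16 ± 0.57 (SE), and -1.93 without LSN replicate 2. Anxa3, an annexin of neutrophils, lung epithelium and endothelium, had 27.5, 16.6 and 17.2 CPM in the LSN tumours, against 40.3 and 94.2 CPM in the vehicle tumours. Its highest value was in vehicle replicate 2, 2.33 times that of vehicle replicate 1. The log2 fold change was -1.72 ± 0.46 (SE), and -0.98 without vehicle replicate 2.

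Vim had 119, 101 and 124 CPM in the LSN tumours, against 126 and 548 CPM in the vehicle tumours. Vehicle replicate 1 was level with the LSN tumours, and vehicle replicate 2 had 4.34 times as much. The log2 fold change was -1.56 ± 0.59 (SE), and -0.14 without vehicle replicate 2. Cd44 had 43.5, 30.9 and 31.3 CPM in the LSN tumours, against 28.9 and 97.6 CPM in the vehicle tumours, and vehicle replicate 1 was the lowest of all 5. The log2 fold change was -0.84 ± 0.54 (SE) and turned to 0.29 without vehicle replicate 2. Without that tumour, the log2 fold change of S100a10 was -0.79, that of S100a11 -1.36 and that of S100a6 -2.16, against -2.08 with all 5 tumours. The median of the 8 genes was then -1.04.

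**Figure D2:**
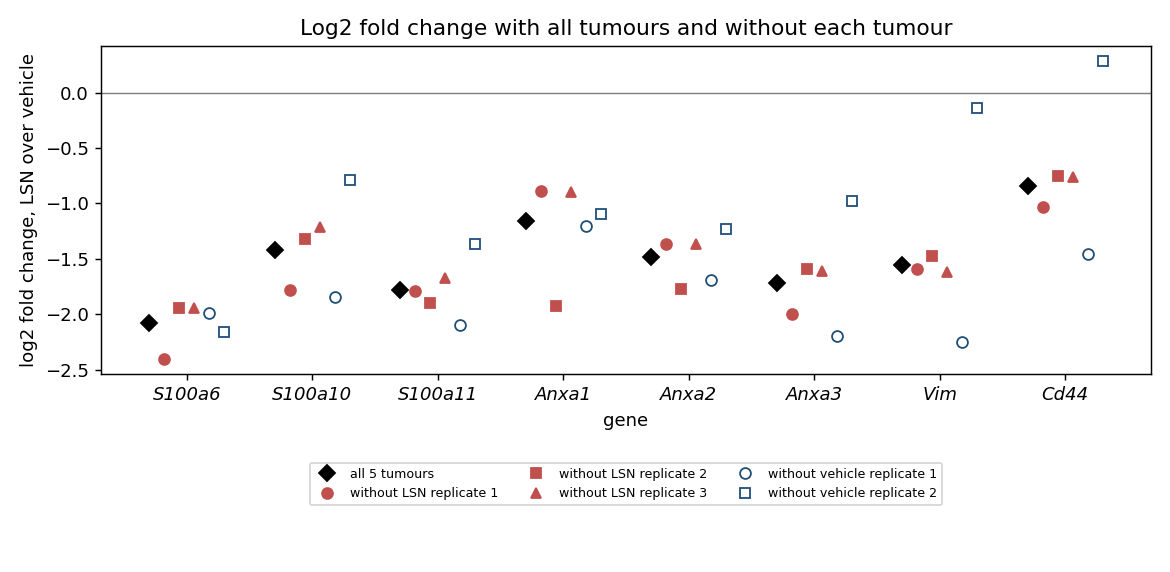
Log2 fold change of LSN over vehicle for each gene with all 5 tumours (diamonds) and with each tumour left out in turn (filled for LSN, open for vehicle). Leaving out vehicle replicate 2 brings Vim to -0.14 and Cd44 to 0.29, while S100a6 stays between -2.40 and -1.94.

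Per kilobase of the gene length in the deposited table, the order of the median levels over the 5 tumours was S100a11 (50.8 CPM per kilobase), Anxa1 (49.5), Anxa2 (29.9), S100a10 (26.8), Vim (26.2), S100a6 (14.1), Anxa3 (7.55), Cd44 (4.63) and S100a4 (0.189). Neighbours in this order overlapped over the tumours, apart from Cd44 (4.27 to 14.4 CPM per kilobase) and S100a4 (0 to 0.669). The deposited length equals the summed exons of all transcripts in GENCODE M21 for 8 of the 9 genes, and Anxa1 is listed with 2608 bases against 2911.

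Within a tumour, the ratio of 2 genes does not depend on scaling. S100a10 per Anxa2, the subunits of 1 complex, was 1.48, 0.538 and 0.724 in the LSN tumours, against 0.624 and 0.946 in the vehicle tumours, on levels per kilobase. S100a11 per Anxa1, the other pair, was 2.77, 1.02 and 2.32 in the LSN tumours, against 1.95 and 2.99 in the vehicle tumours. In both pairs the groups overlapped, and the highest ratio was more than 2.7 times the lowest. S100a11 per Anxa2 varied least of the 7 pairs computed, with 2.43, 1.70 and 2.05 in the LSN tumours against 2.18 and 2.64 in the vehicle tumours, a span of 1.56-fold. S100a6 per Anxa2 varied most, by 3.22-fold.

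**Figure D3:**
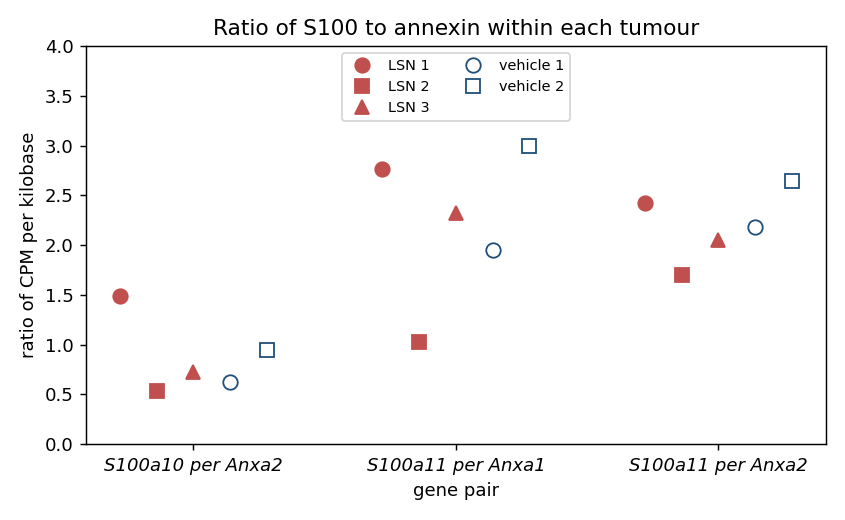
Ratio of levels per kilobase between an S100 gene and an annexin gene within each tumour, LSN tumours filled and vehicle tumours open. S100a10 per Anxa2 is highest in LSN replicate 1 at 1.48, and S100a11 per Anxa1 is lowest in LSN replicate 2 at 1.02.

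Patterns over the tumours were compared by the root mean square difference (RMS) of log2 CPM after centring each gene on its mean. Among the 8 genes, S100a10 and Anxa3 were the most alike (RMS 0.18), followed by S100a11 with Anxa2 (0.22), S100a11 with Anxa3 (0.34), Anxa1 with Anxa2 (0.35) and Vim with Cd44 (0.36). The least alike were S100a6 and Cd44 (0.96). Against the mean pattern of the 8 genes, S100a11 was the nearest (0.18) and Anxa1 the farthest (0.61). Over 11223 protein-coding genes averaging at least 10 CPM, the median RMS from that mean pattern was 0.89, and 53 genes lay within 0.3.

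The 8 other genes most like the mean pattern were Slc39a8, a zinc and manganese transporter (RMS 0.09), Hspg2, the basement membrane proteoglycan perlecan (0.10), Pecam1, the endothelial adhesion molecule CD31 (0.12), Tie1, an endothelial receptor kinase (0.12), Adgrl4, an adhesion receptor of endothelium (0.14), Wwtr1, which encodes TAZ (0.15), Yap1, its paralogue (0.15), and Gprc5a, a receptor of lung epithelium (0.15). These likenesses rest on 5 tumours. For single genes, the nearest to S100a6 were Adgrf5, Pigr and Hopx (RMS 0.16 to 0.18), those to Cd44 were Mrc1, Sgk1 and Fxyd5 (0.15 to 0.16), and those to Vim were Ear2, Cytip and Cd93 (0.21 to 0.22). The nearest to S100a10 were Runx1, Gprc5a and Clic5 (0.11 to 0.12), to S100a11 Gm47283, Ctla2a and S1pr1 (0.08 to 0.14), to Anxa1 Kdr, Vegfa and Adam8 (0.24 to 0.29), to Anxa2 Akr1b8, Gm47283 and Kdr (0.13 to 0.22) and to Anxa3 Ehd2, Hspb1 and Esam (0.12 to 0.15). Gm47283 is listed on chromosome Y, and the sex of the mice is not labelled. Mrc1, a receptor of macrophages, had 28.2, 15.6 and 17.3 CPM in the LSN tumours, against 19.1 and 60.5 CPM in the vehicle tumours. It does not stand for the macrophage markers described below, of which 6 of 9 had a log2 fold change above 0 and 3, Mrc1 among them, below. Hopx, a marker of alveolar type 1 cells, had 16.8, 7.61 and 6.51 CPM in the LSN tumours, against 43.6 and 37.1 CPM in the vehicle tumours, and was thus lower in every LSN tumour.

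The rest of both families was looked at next, apart from S100a2, which was left off the list and had 0 counts in every tumour. Of the 21 listed S100 and annexin genes in the table, 16 passed the filter. Neither edgeR nor DESeq2 called any of them. Every LSN tumour was below both vehicle tumours for 6 of the 16 (10.4% of all genes tested) and above both for 1 (8.48% of all genes tested). Of the 6, S100b passed the filter because of its counts in the vehicle tumours, and S100a9 and Anxa9 were near ties. The median log2 fold change was -0.48, with 10 genes below 0 and 6 above.

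Among the other S100 genes, 6 of 8 had a log2 fold change below 0. S100g, an intestinal calcium carrier, had 2.21, 0.697 and 2.06 CPM in the LSN tumours, against 3.66 and 30.9 CPM in the vehicle tumours, and so rested on vehicle replicate 2. S100b, the S100 protein of glia, had 0.607, 0.322 and 0.265 CPM in the LSN tumours, against 2.58 and 1.51 CPM in the vehicle tumours. Its counts were 11, 6 and 5 in the LSN tumours against 48 and 27 in the vehicle tumours, which carried it through the filter. S100a9, which pairs with S100a8 in neutrophils, had 1.10, 0.536 and 1.32 CPM in the LSN tumours, against 1.40 and 6.196 CPM in the vehicle tumours. It too rested on vehicle replicate 2, and LSN replicate 3 (25 counts) lay just below vehicle replicate 1 (26 counts). The groups overlapped for S100a8, at 0.994, 0.643 and 2.91 CPM in the LSN tumours against 0.968 and 7.65 CPM in the vehicle tumours. S100a13 was named after its values were seen, and its log2 fold change was -0.49 ± 0.27 (SE). S100g, S100b, S100a9 and S100a13 were lower in every LSN tumour.

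The S100 genes of chromosome 3 lie in 2 groups, 12 genes within 185 kb that hold S100a4 and S100a6, and S100a11 with S100a10, which lie 28.8 kb apart and 2.82 Mb further on. S100a11 and S100a10, neighbours, had an RMS of 0.38. S100a16, in the group of S100a6, had 35.01, 87.6 and 200.4 CPM in the LSN tumours, against 120 and 69.0 CPM in the vehicle tumours. Its neighbour S100a14 had 1.99, 4.93 and 53.4 CPM in the LSN tumours, against 10.9 and 8.49 CPM in the vehicle tumours. LSN replicate 3 was highest for both these genes, whereas S100a6 of the same group had its lowest values in LSN replicates 2 and 3.

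Other annexins were split, with 4 genes below 0 and 4 above. Anxa8, an annexin of late endosomes, had 12.0, 2.20 and 3.02 CPM in the LSN tumours, against 25.4 and 22.2 CPM in the vehicle tumours (log2 fold change -2.05 ± 0.81, SE). Anxa9, at 1.10, 1.29 and 0.635 CPM in the LSN tumours and 1.40 and 2.62 CPM in the vehicle tumours, was also lower in every LSN tumour. The gap was narrow, with 24 counts in LSN replicate 2 and 26 in vehicle replicate 1. Anxa6, which has a doubled annexin core and was named after its values were seen, was the 1 gene of both families above both vehicle tumours in every LSN tumour, at 177, 147 and 240 CPM with LSN against 106 and 119 CPM with vehicle (log2 fold change 0.74 ± 0.28, SE). Anxa11, an annexin of RNA granules and lysosomes, had 30.5, 88.9 and 83.7 CPM in the LSN tumours, against 41.1 and 15.3 CPM in the vehicle tumours, with groups that overlapped.

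**Figure D4:**
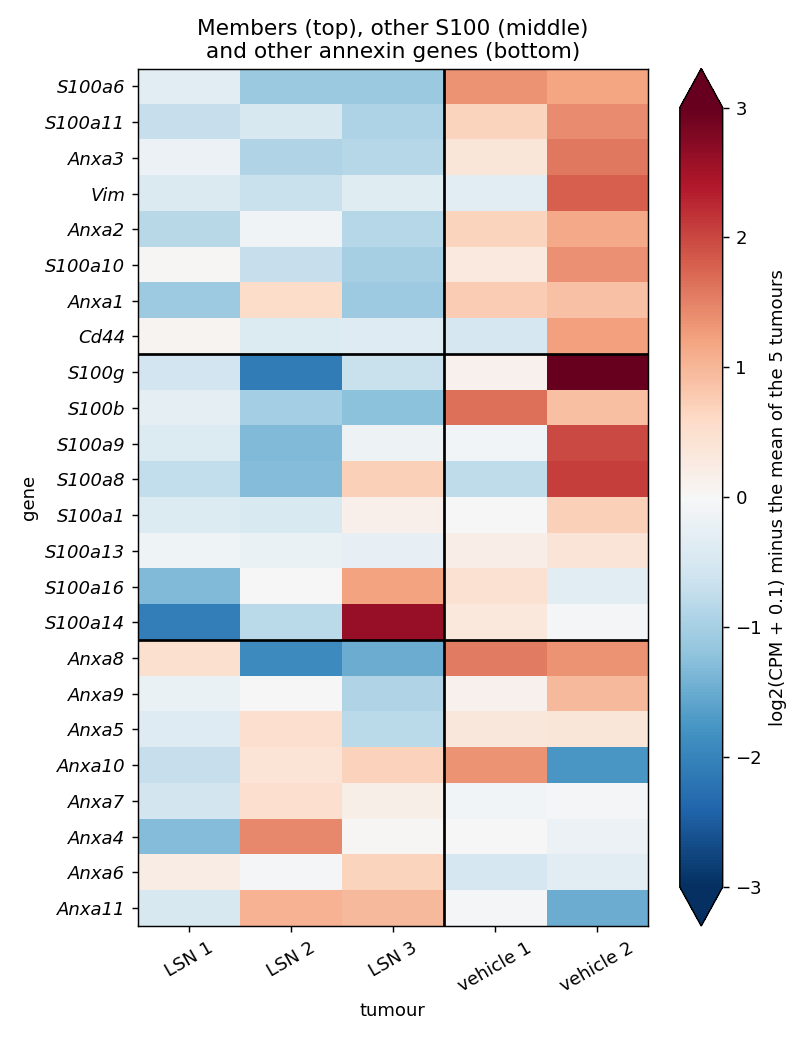
Log2(CPM + 0.1) of the 8 members (top) and of the other S100 genes (middle) and annexin genes (bottom) that passed the filter, minus the mean of the 5 tumours, with LSN tumours left of the black line and vehicle tumours right of it. S100a6 is high in both vehicle tumours, Vim in vehicle replicate 2 alone, and Anxa6 is higher in all 3 LSN tumours.

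Of 19 other intermediate filament and lamin genes, all passed the filter and 9 had a log2 fold change below 0, with a median of 0.14. Nefl, a neurofilament subunit, had 4.20, 13.2 and 2.54 CPM in the LSN tumours, against 54.8 and 24.8 CPM in the vehicle tumours. Nes, the progenitor and endothelial filament nestin that assembles with vimentin, had 14.4, 12.3 and 9.11 CPM in the LSN tumours, against 35.8 and 59.9 CPM in the vehicle tumours. DESeq2 called Nes lower and edgeR did not. Nefm and Krt19 were also lower in every LSN tumour, which makes 4 of 19 genes below both vehicle tumours and 0 above, against 10.4% and 8.48% of all genes tested. Both were named after their values were seen. Krt5, a basal cell keratin, had 9.72 CPM in LSN replicate 1 and at most 1.24 CPM elsewhere. The simple epithelial keratin Krt8, chosen after its values were seen, had 36.5, 1186 and 753 CPM in the LSN tumours, against 770 and 123 CPM in the vehicle tumours. LSN replicate 1 and vehicle replicate 2 were thus low in Krt8, and of these only vehicle replicate 2 was high in Vim.

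Binding partners and receptors were measured for 17 of 18 genes, of which 10 had a log2 fold change below 0 (9 with RLE scaling, 12 with total counts) and 5 were lower in every LSN tumour (10.4% of all genes tested were). Ahnak, the giant scaffold that the annexin A2 and S100A10 complex carries to the membrane, had 57.8, 51.7 and 45.6 CPM in the LSN tumours, against 102 and 137 CPM in the vehicle tumours. Its log2 fold change was -1.21 ± 0.25 (SE), and it was chosen after its values were seen. Ager, a receptor of S100 proteins that alveolar type 1 cells express strongly, had 81.6, 18.1 and 36.8 CPM in the LSN tumours, against 133 and 267 CPM in the vehicle tumours. Dysf, the membrane repair protein dysferlin, had 5.36, 4.56 and 1.91 CPM in the LSN tumours, against 6.24 and 15.2 CPM in the vehicle tumours. Plat and Plaur, a plasminogen activator and the urokinase receptor, completed the 5 genes and, like Ahnak, lay outside the naming rule. Fpr1, a formyl peptide receptor of annexin A1, had 0.884, 0.375 and 0.900 CPM in the LSN tumours, against 0.645 and 6.14 CPM in the vehicle tumours, with groups that overlapped.

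Of 24 genes of hyaluronan and CD44 biology, 9 had a log2 fold change below 0 (10 with total counts), where 46.8% of all genes tested did, and their median was 0.10. The groups lay apart downward for 2 of the 24 (10.4% of all genes tested) and upward for 1 (8.48%). Lyve1, the hyaluronan receptor of lymphatic endothelium, had 8.67, 10.7 and 4.87 CPM in the LSN tumours, against 15.97 and 55.9 CPM in the vehicle tumours, and was lower in every LSN tumour, as was the synthase Has2. Hmmr, a hyaluronan-binding protein of the spindle, was the 1 gene of the list higher in every LSN tumour. Has2 and Hmmr were named after their values were seen. With 9, 10 and 6 counts in the LSN tumours against 25 and 17 in the vehicle tumours, Has2 passed the filter through the vehicle tumours alone. Esrp1, a splicing factor that favours the epithelial forms of CD44, had 3.04, 252 and 423 CPM in the LSN tumours, against 172 and 8.71 CPM in the vehicle tumours. It was low in LSN replicate 1 and vehicle replicate 2, the tumours with the highest Cd44, and gene counts do not tell the forms of Cd44 apart. Mmp9, a protease that CD44 holds at the cell surface, had 1.16, 0.536 and 6.41 CPM in the LSN tumours, against 1.13 and 1.79 CPM in the vehicle tumours.

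Markers of some other cells were also lower in LSN tumours, where 10.4% of all genes tested were lower in every LSN tumour. All 7 endothelial genes lay below both vehicle tumours in every LSN tumour, with summed levels of 72.2 to 107 CPM in the LSN tumours, against 198 and 392 CPM in the vehicle tumours. Alveolar type 2 markers were lower in every LSN tumour for all 5 genes (293 to 1188 CPM in the LSN tumours, 2295 and 6047 CPM in the vehicle tumours), and alveolar type 1 markers for 4 of 5 (59.7 to 193 CPM and 268 and 486 CPM). Airway markers were lower for 3 of 5 (60.6 to 650 CPM in the LSN tumours, 2530 and 4379 CPM in the vehicle tumours), with Ccdc153 at 0 in LSN replicate 2. Scgb1a1 carried most of that sum, and without it the airway sums were 58.5 to 222 CPM in the LSN tumours against 692 and 217 CPM in the vehicle tumours, which overlap. Mesothelial markers were lower for 2 of 4 (27.8 to 47.8 CPM and 54.1 and 61.9 CPM), and smooth muscle markers for 3 of 5 (35.1 to 48.7 CPM and 63.9 and 89.9 CPM). With RLE scaling or total counts, smooth muscle markers were lower for 4 of 5.

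The summed leukocyte and fibroblast markers overlapped between the groups. Macrophage markers summed to 785 to 1425 CPM in the LSN tumours, against 851 and 3243 CPM in the vehicle tumours, with 0 of 9 genes lower in every LSN tumour. Lyz2 carried most of this sum, and without it the sums were 552, 399 and 372 CPM in the LSN tumours against 206 and 507 CPM in the vehicle tumours. The log2 fold change was above 0 for 6 of the 9 macrophage genes, with a median of 0.48, and 3 of the 9 had their highest value in vehicle replicate 2. Fibroblast markers summed to 406 to 812 CPM in the LSN tumours, against 717 and 1479 CPM in the vehicle tumours, with 3 of 8 lower in every LSN tumour (5 of 8 with total counts). Neutrophil markers summed to 3.43 to 8.42 CPM against 5.32 and 27.4 CPM, with Ly6g at 0 in all 5 tumours, T and NK cell markers to 4.72 to 21.7 CPM against 8.12 and 21.7 CPM, and B and plasma cell markers to 14.97 to 139.6 CPM against 53.0 and 236 CPM, LSN tumours given first in each pair. The part of any of these cell types in the levels of the 9 genes was not tested.

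**Figure D5:**
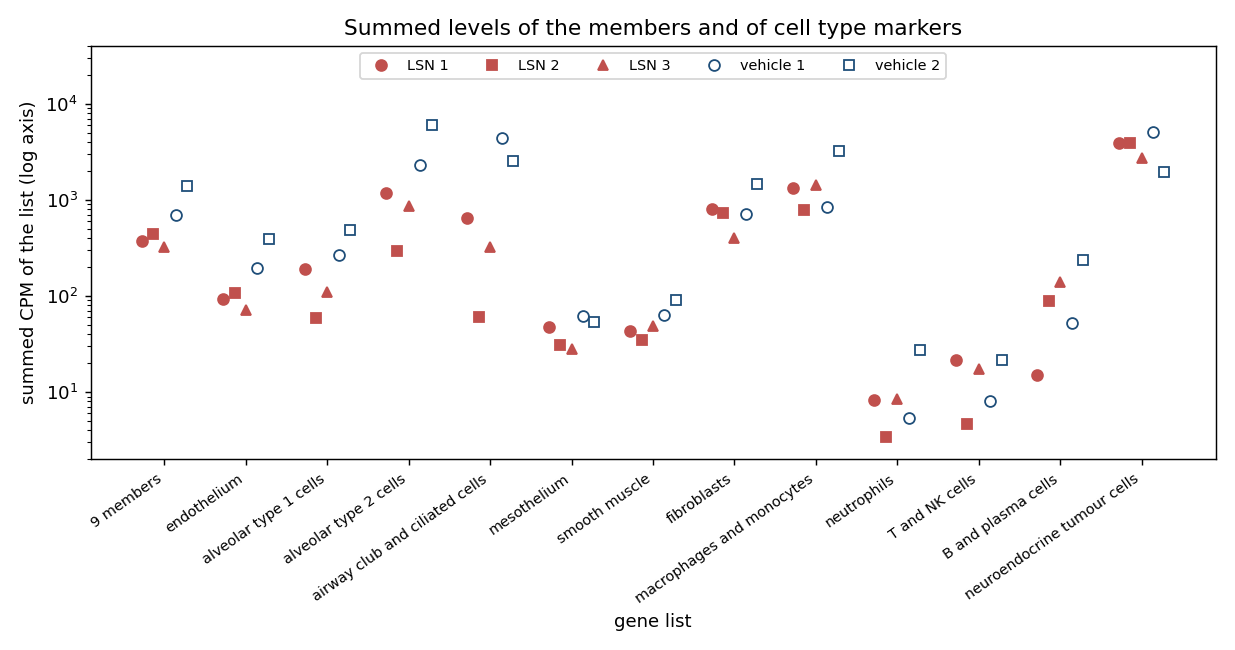
Summed TMM-scaled CPM (log axis) of the 9 members and of each list of cell type markers, 1 point per tumour, with LSN tumours filled and vehicle tumours open. The members (327 to 446 CPM in LSN tumours, 699 and 1404 CPM in vehicle tumours) and the endothelial and alveolar markers are lower in all LSN tumours, while the macrophage, fibroblast and neuroendocrine lists overlap.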

How the data were processed

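RNA was read from flash-frozen lung tumours of mice, and reads were mapped to mm10 with STAR, per the labels' protocols. The authors deposited whole-number read counts per gene, not normalized, with 1 column per tumour and a gene length in bases. Neither the counting program nor its annotation is named in the labels, and the library kit does not keep the strand, per the labels' protocols.

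LSN tumours were compared with vehicle tumours by the quasi-likelihood test of edgeR 4.0.16 in R 4.3.3. The fit was robust, with TMM scaling, Benjamini-Hochberg adjustment over 17906 genes and 3 residual degrees of freedom. The filter, filterByExpr, kept genes with the CPM of about 10 counts in at least 2 tumours and 15 counts in total. A gene could thus pass through the vehicle tumours alone. SEs were taken from the log2 fold change and its F value. An exact permutation test of 3 against 2 tumours cannot give a p below 0.1. Nothing in the labels names a batch or pairs tumours. The p-values of the fits set the difference between groups against the spread between these tumours only, an estimate that borrows from other genes. CPM floors cover counting error only. Alternatives were DESeq2 1.42.0, limma-voom (limma 3.58.1), RLE scaling, total counts, other filters, a prior count of 2, a fit without robust estimation and leaving out each tumour. The code was tested on simulated counts with planted changes and a fixed spread that was not taken from these tumours. That test checks the code only and says nothing about the power in these data.

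The 9 genes and all lists were chosen with earlier results of these data known. Named genes are the members, the 3 other genes of each of 5 functional lists with the largest absolute log2 fold change averaging at least 1 CPM, the 8 genes most like the members' mean pattern, the 3 most like a single member, and neighbours in the S100 cluster. Genes outside this rule are marked where they appear or complete a count or marker list. Markers of 12 cell types were summed, and 1 neuroendocrine marker is not reported here and enters no sum. Motifs were searched in RefSeq promoters of build GRCm38.p6.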

Additional observations from a re-analysis of the deposited data

How the results depend on the processing

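The number of genes called between LSN and vehicle was 0 under edgeR in all settings and under limma-voom, and 100 under DESeq2. The genes of the set below every vehicle tumour in every LSN tumour numbered 7 under all scalings and filters. This count uses scaled CPM only, so a change of test alone cannot move it. It was 7 to 8 without 1 tumour, where 15.8% to 26.3% of all genes tested had this pattern, against 10.4% with all tumours. Fewer tumours make the pattern easier to meet, so nothing is read from its stability. The median log2 fold change of the 8 measured genes, -1.52, lay between -1.61 and -1.45 under the other settings and between -1.92 and -1.04 without 1 tumour, the smallest size being without vehicle replicate 2. The count of 6 other S100 and annexin genes was 6 to 8 without 1 tumour. Of 104 values of single genes, 99 moved by less than the spread between tumours, 5 moved by more, all without vehicle replicate 2, and 1, Cd44 without that tumour, changed sign. The fit without robust estimation gave the same log2 fold changes as the main fit, and the prior count of 2 nearly the same. The 99 thus include values that had little room to move. No paired analysis was possible because the labels give tumours no shared numbers. With 2 vehicle tumours, and with 7 or fewer counts of S100a4, neither small differences nor S100a4 can be resolved.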
